A study of Mus musculus with 15 samples.

Results

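The BCL2 family decides whether a cell opens the outer membrane of its mitochondria, and 10 of its genes were followed here among the 46078 genes of the deposited count table. They are the survival genes Bcl2, Bcl2l1 (BCL-XL) and Mcl1, the pore-forming effectors Bax and Bak1, and the BH3-only genes Bcl2l11 (BIM), Bbc3 (PUMA), Pmaip1 (NOXA), Bid and Bad. They were taken by name from a list, matched through the Ensembl identifiers of the table, and each was found once. All 10 passed the filter on low counts in every comparison. The libraries were made from the podocyte fraction of the kidney cortex of individual male C57BL/6J mice, that is, the cells that magnetic beads retained after labelling with antibodies to nephrin, a protein of the podocyte slit diaphragm. Young mice were 4 months old and received no injection (n = 5). Aged mice entered the injection course at 21 months and received, at 12 mg/kg once a week over 8 weeks, either the isotype control antibody IgG2a (clone 2A3, n = 4) or the anti–PD-1 antibody aPD1ab (clone RMP1-14, n = 4), which blocks an inhibitory receptor best known from T cells. The titles of the aPD1ab samples give 47 days. Because young mice were not injected, age and injection cannot be told apart in a comparison with young mice, whereas aged aPD1ab against aged IgG2a compares antibodies at the same age.

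Survival proteins of the family hold the effectors in check by binding them and the BH3-only proteins. BH3-only proteins are induced or activated by stress, starvation, death receptors or loss of growth factors. They occupy the survival proteins or activate BAX and BAK directly, and BAX and BAK then form pores that release cytochrome c and start the caspase cascade. Much of this control lies in protein binding, cleavage and phosphorylation, which mRNA counts do not measure. Podocytes scarcely divide after development, so a podocyte that dies is poorly replaced, and the balance of this family has been studied in these cells.

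Read counts per library lay between 19912969 and 32717100, and 3 counts corresponded to between 0.0917 and 0.151 per 1000000 reads before TMM scaling. CPM below means read counts per 1000000 after TMM scaling of library sizes. The lowest count of any member in any library was 104, for Bbc3. Aged IgG2a library 1 stood apart from its group. Across 16330 genes its log2 CPM correlated with the other 3 aged IgG2a libraries at r = 0.926 to 0.941, with young libraries at 0.962 to 0.967 and with aged aPD1ab libraries at 0.955 to 0.975, while the other 3 correlated among themselves at 0.968 to 0.977. The fold changes of members that use this library are therefore given with and without it. All 8 podocyte markers were above 3 counts in every library, but their summed level was 1009 to 1531 CPM in young, 338 to 521 in aged IgG2a and 336 to 769 in aged aPD1ab mice. Markers of other cells moved too. The 10 proximal tubule markers summed to 5715 to 9091 CPM in young mice, to 4366, 899.6, 1366 and 1208 in aged IgG2a libraries 1 to 4, and to 4336 to 13200 in aged aPD1ab mice. The 8 macrophage markers summed to 1454 to 2578 CPM in young mice, to 2156, 6750, 6153 and 4875 in aged IgG2a libraries 1 to 4, and to 1523 to 3678 in aged aPD1ab mice. In aged IgG2a against young mice, 7 of 8 podocyte and 9 of 10 proximal tubule markers were called lower and 8 of 8 macrophage markers higher. Of all genes tested, 9.05% were called higher and 8.38% lower. Of the other lists, 2 of 7 T cell, 1 of 6 B and plasma cell, 1 of 3 tested neutrophil and 1 of 7 loop, distal and collecting duct markers were called higher, and 5 of 7 endothelial and 3 of 5 mesangial and mural markers lower. Without library 1 the calls were 7 of 8 podocyte, 10 of 10 proximal tubule, 6 of 7 endothelial, 3 of 5 mesangial and mural and 2 of 7 loop, distal and collecting duct markers lower, and 8 of 8 macrophage, 6 of 7 T cell, 1 of 6 B and plasma cell and 1 of 4 tested neutrophil markers higher. Those calls stand beside 22.1% of all genes higher and 23.5% lower. For aPD1ab against IgG2a 0 of 61 tested markers and 0% of all genes were called by edgeR. At an unadjusted p under 0.05 there were 17 markers, beside 28% of all genes. Without library 1, 9 of 10 proximal tubule, 4 of 8 podocyte and 1 of 7 loop, distal and collecting duct markers were called higher. Lower were 8 of 8 macrophage, 2 of 7 T cell and 1 of 3 tested neutrophil markers. Of all genes, 17.1% were then called higher and 13.2% lower. In a bulk fraction, fewer cells of a type and less RNA per cell cannot be told apart, and each member below is expressed by many cell types.

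Measured per kilobase of exon, so that genes can be set against each other, Mcl1 was the most abundant member in all 3 groups, at 112 ± 13.2 CPM per kb in young (SD, n = 5), 164 ± 55.9 in aged IgG2a (n = 4) and 128 ± 28.7 in aged aPD1ab mice (n = 4). Its libraries did not overlap with those of the member ranked next, Pmaip1, at 23.9 ± 5.62, 44.1 ± 18.6 and 28.4 ± 6.62 CPM per kb. Bcl2l1 and Bax followed. In young mice Bcl2l1 (18.1 ± 2.63) and Bax (15.6 ± 1.71) overlapped, whereas in aged aPD1ab mice Bax (26.9 ± 2.57) lay above Bcl2l1 (19.2 ± 1.70) without overlap. In aged IgG2a mice Bax (23.9 ± 4.89) and Bcl2l1 (16.1 ± 1.81) overlapped. Without library 1 these were 25.97 ± 2.99 and 15.5 ± 1.73 (n = 3) with no overlap, and the means of Mcl1, Pmaip1 and Bid were 175.4 ± 62.1, 48.9 ± 19.4 and 4.71 ± 0.57. The lowest levels per kb in young mice were those of Bcl2l11 (3.25 ± 0.42), Bcl2 (2.88 ± 0.34) and Bbc3 (2.49 ± 0.77), and each of these overlapped with the next. Bid ranked 5 of 10 in young mice at 8.07 ± 1.03 CPM per kb, and 8 of 10 in aged IgG2a mice at 5.06 ± 0.84, where Bak1, Bcl2l11, Bad, Bid, Bbc3 and Bcl2 each overlapped with the next in order. In aged aPD1ab mice Bid ranked 5 of 10 again, at 11.3 ± 4.54 CPM per kb, with more spread between mice than any neighbour.

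**Figure D1:**
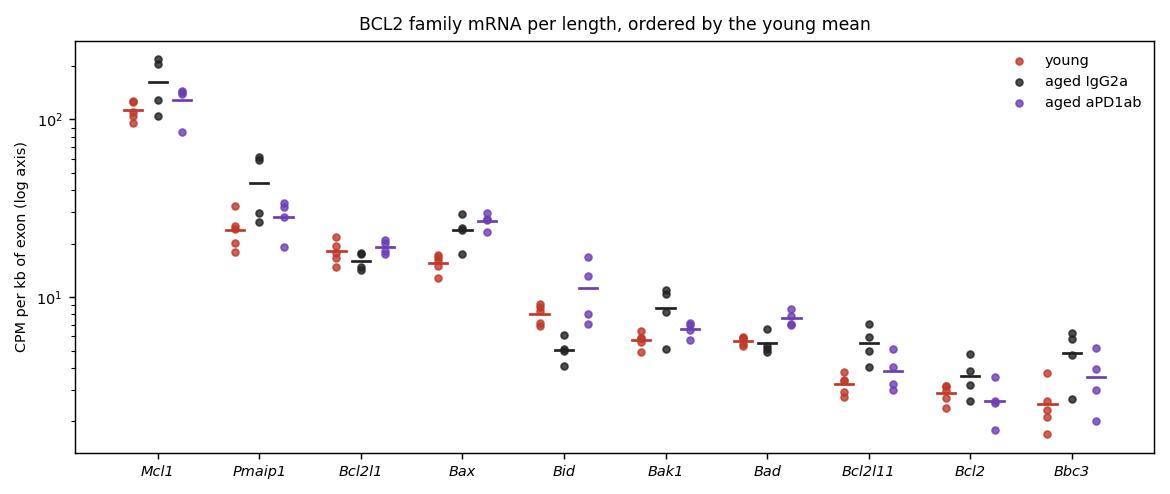
CPM per kilobase of exon (log axis) of the 10 members, ordered by their mean in young mice. Each point is 1 library and each bar a group mean (red, young, n = 5; black, aged IgG2a, n = 4; purple, aged aPD1ab, n = 4). Mcl1 lies above the other 9 members in all 3 groups.

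The comparison of aged IgG2a with young mice asks how the family differs in the aged podocyte fraction. Bcl2l11, Bbc3 and Pmaip1, 3 of the 5 BH3-only genes, and the effector Bax rose by 1.62-fold to 2.07-fold, and the BH3-only gene Bid fell to 0.66 of its young level. None of the 3 survival genes passed the test. Thus 5 of 10 members were called, 4 of them higher, by edgeR's quasi-likelihood test at a Benjamini-Hochberg adjusted p under 0.05 over all genes. Of the 15953 genes tested, 17.4% were called (9.05% higher and 8.38% lower). DESeq2 also called the survival gene Mcl1 (DESeq2 adjusted p = 0.0404) as higher. Limma voom with sample quality weights called Mcl1 (voom adjusted p = 0.0131) and Bcl2 (voom adjusted p = 0.0153). The median log2 fold change was 0.65 over the 10 members and 0.038 over all genes tested. In TMM-scaled CPM, Bax and Bcl2l11 were higher and Bid was lower with no overlap of the groups. Of all genes, 4.88% were higher and 9.45% lower in this way. Without aged IgG2a library 1, 8 of 10 members were called (7 higher, with Bcl2, Mcl1 and Bak1 added, and 1 lower) beside 45.6% of genes (22.1% higher and 23.5% lower), with a member median of 0.77. The groups then did not overlap for 5 members that were higher (18.2% of genes) and 2 that were lower (28.7% of genes). The count also turned on other libraries. It was 0 without aged IgG2a library 2 and 0 without library 3, where 288 and 260 of all genes were called higher and 384 and 293 lower. It was 3 without aged IgG2a library 4 (485 of all genes higher and 530 lower), 3 without young library 1 (454 and 583) and 3 without young library 2 (603 and 747). It was 1 without young library 3 (345 and 464) and 2 without young library 4 (443 and 673).

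Scaling moved these values. TMM factors were between 1.04 and 1.18 in young mice and between 0.726 and 0.926 in aged IgG2a libraries 2 to 4. With library totals in place of TMM, the median of all genes moved by -0.41 on the log2 scale, 0 members were called higher and 1, Bid, lower, and among all genes 331 were higher and 3380 lower, against 1443 and 1337 with TMM. On that scale Bcl2 turned to -0.076, and Bax, Bcl2l11, Bbc3 and Pmaip1 remained above 0, at 0.25, 0.39, 0.58 and 0.53. In TPM, where the median gene moved by -0.71, the differences of mean log2 level of Bcl2, Mcl1, Bax and Bak1 turned below 0, to -0.37, -0.18, -0.060 and -0.12, and those of Bcl2l11, Bbc3 and Pmaip1 were 0.085, 0.29 and 0.15. The aged IgG2a and young values of Bax and Bcl2l11 overlapped in TPM.

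**Figure D2:**
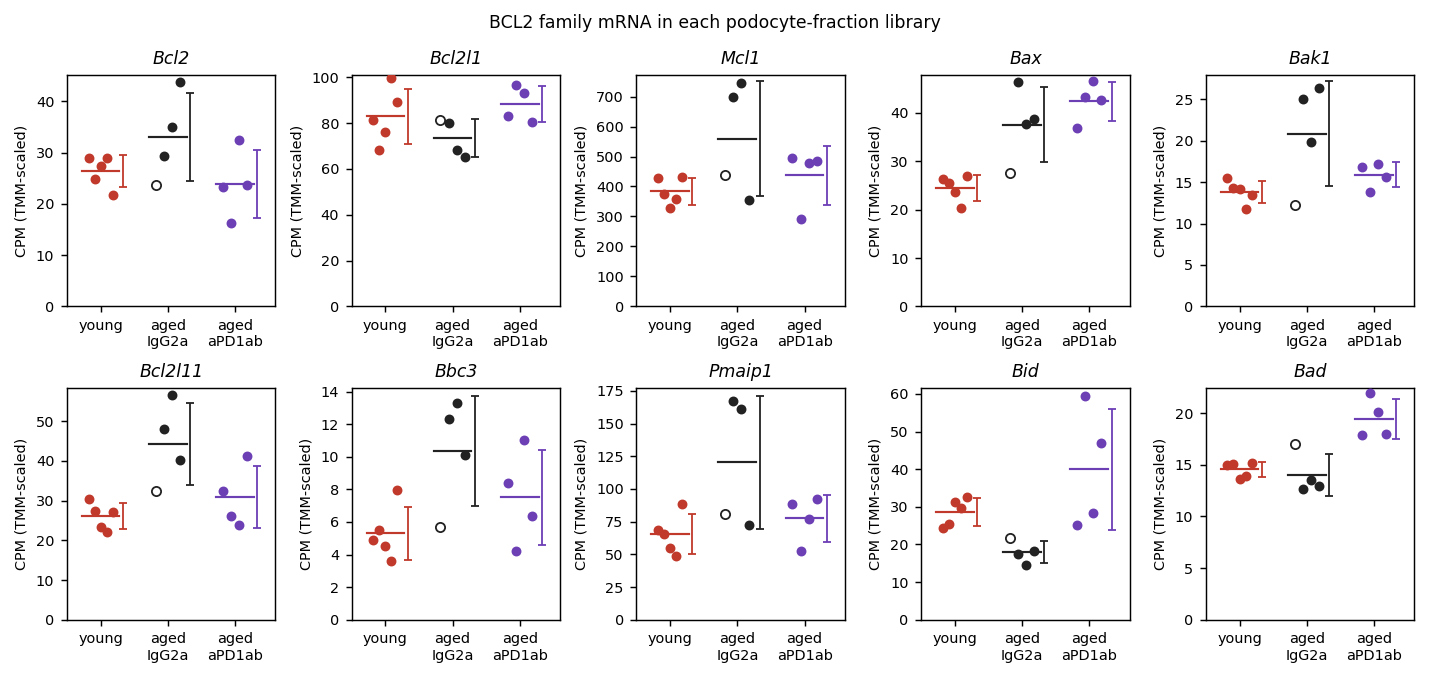
TMM-scaled CPM of each member in each library, with the group mean (bar) and SD (error bar) for young (n = 5), aged IgG2a (n = 4) and aged aPD1ab (n = 4) mice. The open circle is aged IgG2a library 1. On this scale Bax separates both aged groups from young mice, and Bid is lowest in aged IgG2a mice.

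Treatment with aPD1ab was compared with IgG2a at the same age. With all 8 aged libraries, 0 of 10 members and 0% of the 15530 genes tested by edgeR were called, while 4341 genes (28% of those tested) had an unadjusted p under 0.05, among them Bid, Bad and Bcl2l11. DESeq2 called 1390 genes higher and 983 lower, limma voom with sample quality weights 3248 and 2929, and a joint edgeR fit of the 3 groups 1861 and 1002. Bid and Bad were higher with aPD1ab with no overlap of the groups, 2 of 10 members beside 6.61% of genes, and the member median log2 fold change was -0.40 beside -0.011 over all genes. Without aged IgG2a library 1, 4 of 10 members were called beside 30.4% of genes (17.1% higher and 13.2% lower): Bid and Bad rose with aPD1ab, and Bak1 and Bcl2l11 fell. The groups then did not overlap for Bcl2l1, Bid and Bad, which were higher (25.6% of genes), nor for Bak1, which was lower (17.8% of genes). DESeq2 over all 8 aged libraries called 2 members, Bid and Bad, and voom called 6. The joint fit, which also holds the young libraries, called Bid and Bad as well.

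Against young mice, aged aPD1ab mice carried higher Bax and Bad, 2 of 10 members beside 22.4% of the 15986 genes tested (12.4% higher and 9.97% lower), a share of members close to that of all genes. Both were apart from young mice with no overlap, as were 11.3% of genes that were higher. The member median was 0.26 beside 0.017 over all genes. The other 8 members had an edgeR adjusted p from 0.151 to 0.626, and their log2 fold changes lay between -0.13 and 0.51. With library totals the median of all genes moved by -0.12, Bax remained called and Bad did not, and calls over all genes went from 1984 higher and 1594 lower to 856 and 1632. The 3 comparisons share libraries with each other, so their values for a member are not independent and are given side by side.

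**Figure D3:**
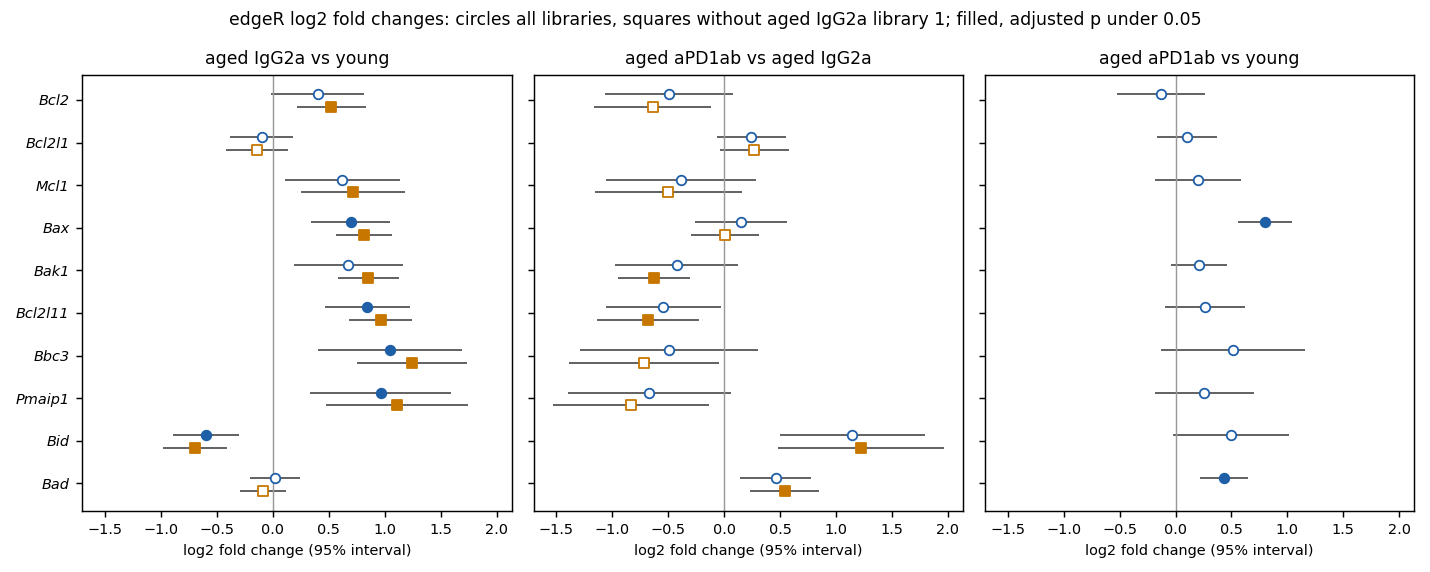
Log2 fold change of each member with its 95% interval in the 3 comparisons. Circles use all libraries and squares leave out aged IgG2a library 1, and filled symbols have an edgeR adjusted p under 0.05. In aged IgG2a against young mice 7 squares are filled to the right of 0 and 1 to the left.

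Among the survival genes, Bcl2 (ENSMUSG00000057329, chromosome 1, 106538178 to 106714274, minus strand, GRCm38) encodes the founding member of the family, which sits in the outer mitochondrial and endoplasmic reticulum membranes. In CPM, Bcl2 stood at 28.9, 24.9, 27.4, 29.0 and 21.8 in the 5 young libraries, at 23.7, 29.4, 35.0 and 43.8 in aged IgG2a libraries 1 to 4, and at 23.3, 16.3, 32.4 and 23.7 in aged aPD1ab libraries 1 to 4. Aged IgG2a and young values overlapped through library 1 alone, the lowest of its group, and aPD1ab values overlapped with both. The log2 fold change in aged IgG2a against young mice was 0.40 (standard error, SE, 0.19, edgeR adjusted p = 0.151) with all libraries and 0.52 (SE 0.14, edgeR adjusted p = 0.0102) without library 1. For aPD1ab against IgG2a it was -0.49 (SE 0.25, edgeR adjusted p = 0.231), and -0.64 (edgeR adjusted p = 0.0651) without library 1.

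Bcl2l1 (ENSMUSG00000007659, chromosome 2, 152780668 to 152831728, minus strand) encodes BCL-XL, a survival protein that binds BAX, BIM and other partners. Bcl2l1 was measured at 81.5, 68.2, 76.0, 99.5 and 89.2 CPM in young, 81.5, 80.1, 68.1 and 65.1 CPM in aged IgG2a and 82.9, 96.5, 93.0 and 80.3 CPM in aged aPD1ab libraries. The 3 groups overlapped, and no comparison passed the test. Its log2 fold change was -0.10 (95% interval -0.38 to 0.18) for aged IgG2a against young, 0.24 (-0.063 to 0.55) for aPD1ab against IgG2a and 0.10 (-0.16 to 0.37) for aPD1ab against young mice. Without library 1 it was -0.14 (-0.42 to 0.13) for aged IgG2a against young mice. Without library 1 the aPD1ab values lay above the other 3 IgG2a values, at a log2 fold change of 0.27 (SE 0.13, edgeR adjusted p = 0.159).

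Mcl1 (ENSMUSG00000038612, chromosome 3, 95658788 to 95663176, plus strand), whose protein is short-lived and binds BIM, NOXA and BAK, ranged widely within the aged groups. Young libraries held 428, 375, 328, 358 and 433 CPM of Mcl1, aged IgG2a libraries 439, 698, 744 and 356 CPM, and aged aPD1ab libraries 495, 290.5, 478 and 486 CPM. Aged IgG2a libraries 2 and 3 exceeded every other library, while library 4 of the same group lay within the young range and library 1 just above it. Against young mice the log2 fold change was 0.62 (SE 0.23, edgeR adjusted p = 0.0866), and 0.72 (SE 0.21, edgeR adjusted p = 0.0180) without library 1. For aPD1ab against IgG2a it was -0.38 (SE 0.30, edgeR adjusted p = 0.411), and -0.50 (edgeR adjusted p = 0.216) without library 1.

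Of the effectors, BAX is held in the cytosol until activated and BAK resides in the mitochondrial outer membrane. The Bax gene is annotated as ENSMUSG00000003873, chromosome 7, 45461697 to 45466898, minus strand. For Bax the values were 26.3, 25.4, 23.6, 20.3 and 27.0 CPM in young mice, 27.6, 46.3, 37.8 and 38.7 CPM with IgG2a and 36.9, 43.3, 46.6 and 42.7 CPM with aPD1ab. On this scale every aged library was above every young library, IgG2a library 1 narrowly so, while the aged groups overlapped. In TPM the IgG2a values of 38.3, 52.0, 33.8 and 29.0 overlapped with the young values of 33.4 to 44.8. The lowest aPD1ab value in TPM, 48.3, still lay above all young values. Bax rose in aged IgG2a mice by a log2 fold change of 0.70 (SE 0.16, edgeR adjusted p = 0.0228), and by 0.81 (SE 0.11, edgeR adjusted p = 0.00023) without library 1. In aged aPD1ab mice it rose by 0.80 (SE 0.11, edgeR adjusted p = 0.00315), the only member called in both aged groups. The IgG2a call was lost without young library 3 or 4 or aged IgG2a library 2, 3 or 4 (edgeR adjusted p from 0.0537 to 0.0688), whereas the aPD1ab call held in 15 of 15 alternatives. Between the aged groups the log2 fold change was 0.15 (95% interval -0.26 to 0.56), and 0.0080 (-0.30 to 0.31) without library 1. Another gene model, Gm45808, shares 12.2% of the exon bases of Bax on the same strand.

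Bak1, the gene of BAK, is annotated as ENSMUSG00000057789, chromosome 17, 27019810 to 27029009, minus strand. In CPM, Bak1 stood at 15.5, 14.2, 14.2, 11.8 and 13.4 in the 5 young libraries, at 12.3, 25.0, 19.8 and 26.3 in aged IgG2a libraries 1 to 4, and at 16.8, 13.8, 17.2 and 15.6 in aged aPD1ab libraries 1 to 4. Aged IgG2a libraries 2, 3 and 4 exceeded every young and aPD1ab library, and library 1 lay below all but 1 young library. The log2 fold change against young mice was 0.67 (SE 0.22, edgeR adjusted p = 0.0572) with library 1, and 0.85 (SE 0.12, edgeR adjusted p = 0.00031) without it. With aPD1ab it was -0.42 (SE 0.24, edgeR adjusted p = 0.275) over all aged libraries, and without library 1 Bak1 fell by 0.62 (SE 0.14, edgeR adjusted p = 0.0151) on the log2 scale. Aged aPD1ab and young mice overlapped, at a log2 fold change of 0.21 (SE 0.11, edgeR adjusted p = 0.197). Ggnbp1, on the opposite strand, covers up to 18.2% of the exon bases of Bak1, and whether counting used strand is not given in the sources used here. Ggnbp1 stood at means of 23.1, 15.6 and 32.6 CPM in young, aged IgG2a and aged aPD1ab mice. How reads of the shared bases entered the counts of either gene was not tested.

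Bcl2l11 (ENSMUSG00000027381, chromosome 2, 128126038 to 128162547, plus strand) encodes BIM, a BH3-only protein that binds all survival members and is transcribed under FOXO factors when growth factor signalling drops. Bcl2l11 was measured at 30.4, 27.4, 23.4, 22.1 and 27.2 CPM in young, 32.5, 48.0, 56.7 and 40.1 CPM in aged IgG2a and 32.5, 26.2, 23.9 and 41.2 CPM in aged aPD1ab libraries. On this scale every aged IgG2a library lay above every young library, and aPD1ab values overlapped with both groups. In TPM the IgG2a values of 8.87, 10.57, 9.95 and 5.92 overlapped with the young values of 6.51 to 9.47. In aged IgG2a mice Bcl2l11 rose by a log2 fold change of 0.84 (SE 0.17, edgeR adjusted p = 0.0164), and by 0.96 (SE 0.13, edgeR adjusted p = 0.0002) without library 1. The call held in 12 of 15 alternatives and was lost without aged IgG2a library 2 or 3 (edgeR adjusted p = 0.0512 and 0.0523) and with library totals. With aPD1ab the difference from IgG2a was -0.54 (SE 0.23, edgeR adjusted p = 0.162) over all libraries, and without library 1 it fell by 0.68 (SE 0.20, edgeR adjusted p = 0.0340). Within the IgG2a group, the 3 libraries with most Bcl2l11 also had the highest summed macrophage markers. The part of macrophages in the Bcl2l11 difference was not tested.

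Bbc3 (ENSMUSG00000002083, chromosome 7, 16308393 to 16318205, plus strand), the gene of PUMA, is a transcriptional target of DNA damage signalling. Young libraries held 4.89, 5.52, 4.50, 3.60 and 7.95 CPM of Bbc3, aged IgG2a libraries 5.67, 12.3, 13.3 and 10.1 CPM, and aged aPD1ab libraries 8.39, 4.23, 11 and 6.38 CPM. Aged IgG2a libraries 2 to 4 exceeded every young library, while library 1 lay within the young range and aPD1ab values spanned both groups. Bbc3 rose in aged IgG2a mice by 1.05 (SE 0.29, edgeR adjusted p = 0.0371) on the log2 scale, the largest change among the members in this comparison, and by 1.24 (SE 0.22, edgeR adjusted p = 0.00114) without library 1. The call was lost without any of young libraries 1 to 4 or aged IgG2a libraries 2 to 4 (edgeR adjusted p from 0.0677 to 0.110). For aPD1ab against IgG2a the log2 fold change was -0.50 (SE 0.35, edgeR adjusted p = 0.369), and -0.71 (SE 0.29, edgeR adjusted p = 0.0962) without library 1.

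Pmaip1 (ENSMUSG00000024521, chromosome 18, 66458533 to 66465565, plus strand) encodes NOXA, which binds MCL1 and marks it for degradation. For Pmaip1 the values were 68.7, 65.8, 54.9, 48.9 and 88.8 CPM in young mice, 80.9, 168, 161 and 72.5 CPM with IgG2a and 88.3, 52.2, 76.8 and 92.5 CPM with aPD1ab. Aged IgG2a libraries 2 and 3 were far above all others, and libraries 1 and 4 lay within the young range. The rise in aged IgG2a mice was 0.96 (SE 0.28, edgeR adjusted p = 0.0442) with library 1 and 1.11 (SE 0.28, edgeR adjusted p = 0.0112) without it. Leaving out any 1 young library, or aged IgG2a library 2 or 3, ended the call (edgeR adjusted p from 0.0528 to 0.135). Under aPD1ab the log2 fold change from IgG2a was -0.67 (SE 0.32, edgeR adjusted p = 0.207), and -0.83 (SE 0.30, edgeR adjusted p = 0.0690) without library 1. Libraries 2 and 3 were thus highest of the IgG2a group for both NOXA and MCL1 mRNA. They were also highest of that group for Bcl2l11, Bbc3 and summed macrophage markers (6750 and 6153 CPM). The part of macrophages in the Pmaip1 and Mcl1 differences was not tested.

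Bid (ENSMUSG00000004446, chromosome 6, 120891930 to 120916853, minus strand), which caspase-8 cleaves to link death receptors to mitochondria, was the one member that fell in aged IgG2a mice. In CPM, Bid stood at 24.3, 25.4, 31.3, 29.7 and 32.6 in the 5 young libraries, at 21.7, 17.5, 14.4 and 18.2 in aged IgG2a libraries 1 to 4, and at 25.2, 59.4, 28.4 and 47.0 in aged aPD1ab libraries 1 to 4. All IgG2a values lay below all young and all aPD1ab values, and aPD1ab libraries 2 and 4 exceeded every other library. Bid fell by 0.60 (SE 0.13, edgeR adjusted p = 0.0202) on the log2 scale in aged IgG2a against young mice, and by 0.70 (SE 0.13, edgeR adjusted p = 0.00138) without library 1. Without young library 3 or aged IgG2a library 2 or 3 the adjusted p from edgeR was 0.0534 to 0.0617, and in the joint fit of the 3 groups it was 0.0650 (log2 fold change -0.66). With aPD1ab the log2 fold change from IgG2a was 1.15 (SE 0.29, edgeR adjusted p = 0.109), and without library 1 Bid rose by 1.22 (SE 0.32, edgeR adjusted p = 0.0253). DESeq2 gave 1.12 (adjusted p = 0.00899) and the joint edgeR fit 1.15 (adjusted p = 0.0196) over all libraries. Against young mice the aPD1ab value was 0.50 (SE 0.23, edgeR adjusted p = 0.151), and 0.66 (edgeR adjusted p = 0.0441) without aPD1ab library 1.

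Summed proximal tubule markers, like Bid, were lowest in aged IgG2a mice, though the order of libraries within a group was not always shared. They were 13200 and 6998 CPM in aPD1ab libraries 2 and 4, which held most Bid, against 4425 and 4336 in aPD1ab libraries 1 and 3, and they were lowest in IgG2a libraries 2 to 4. The part of tubule cells in the Bid difference was not tested. Bcl2l13 on the opposite strand covers 17.7% of the exon bases of Bid, and its mean was 40.6, 30.2 and 31.9 CPM in young, aged IgG2a and aged aPD1ab mice.

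**Figure D4:**
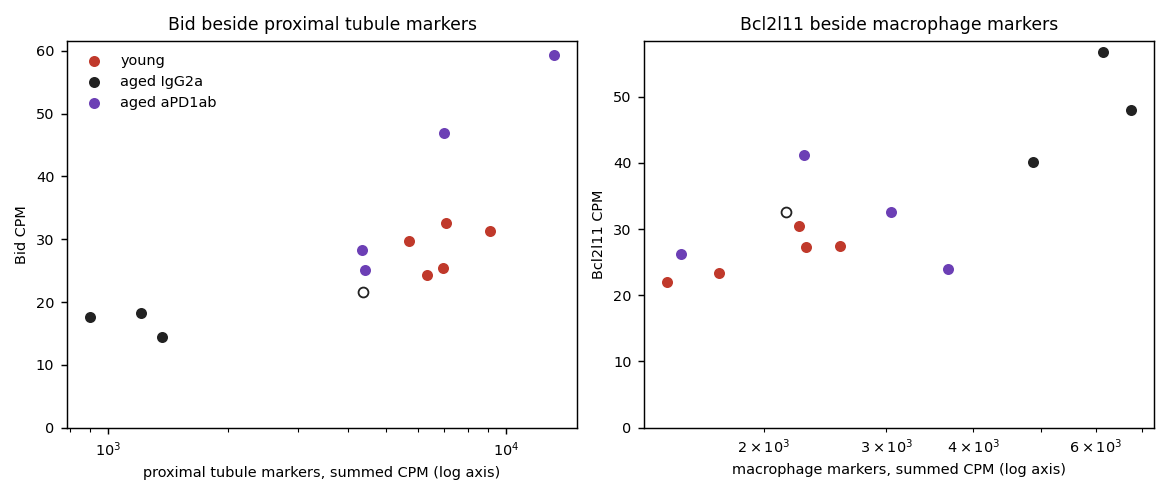
Left, Bid CPM against the summed CPM of 10 proximal tubule markers, and right, Bcl2l11 CPM against the summed CPM of 8 macrophage markers (x axes are log axes), with 1 point per library and aged IgG2a library 1 open. The 3 filled aged IgG2a points lie at the low end of the tubule axis and at the high end of the macrophage axis.

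Bad (ENSMUSG00000024959, chromosome 19, 6941861 to 6951899, plus strand) links survival signalling to the family, since its phosphorylated form is sequestered by 14-3-3 proteins. Bad was measured at 15.0, 15.0, 13.7, 13.9 and 15.2 CPM in young, 17, 12.6, 13.5 and 13 CPM in aged IgG2a and 17.8, 21.9, 20.1 and 18.0 CPM in aged aPD1ab libraries. Every aPD1ab library was above every young and every IgG2a library, and young and IgG2a values overlapped. In TPM aPD1ab library 3, at 12.8, lay below the highest young value of 16.3 and the highest IgG2a value of 14.6. Against young mice Bad rose by 0.43 (SE 0.10, edgeR adjusted p = 0.0124) with aPD1ab, a call that held in 14 of 15 alternatives and was lost with library totals (0.30, edgeR adjusted p = 0.0973). Against IgG2a the log2 fold change was 0.46 (SE 0.14, edgeR adjusted p = 0.111), and without library 1 Bad rose by 0.54 (SE 0.13, edgeR adjusted p = 0.0205). In aged IgG2a against young mice it was 0.017 (95% interval -0.21 to 0.24), and -0.086 (-0.29 to 0.12) without library 1. Gpr137 on the opposite strand covers 20.5% of the exon bases of Bad and stood at means of 26.7, 21.5 and 32.5 CPM in young, aged IgG2a and aged aPD1ab mice. If counting ignored strand, reads of the shared bases could not be assigned to either gene alone, and their part was not tested.

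Bax and Bcl2l11 were the members that rose in aged IgG2a mice with no overlap of the groups in TMM-scaled CPM. Both are shown here by the bases before their transcription starts, chosen after their values were seen. The RefSeq windows hold 250 bases upstream on GRCm38.p6, 5′ to 3′ on the strand of the gene, and both end at the GENCODE start. Bax lies on the minus strand (window chr7:45466899-45467148) and Bcl2l11 on the plus strand (window chr2:128125788-128126037). Capitals mark the GC box, GGGCGG or CCGCCC, the kind of site that Sp1-type factors bind.
Bax: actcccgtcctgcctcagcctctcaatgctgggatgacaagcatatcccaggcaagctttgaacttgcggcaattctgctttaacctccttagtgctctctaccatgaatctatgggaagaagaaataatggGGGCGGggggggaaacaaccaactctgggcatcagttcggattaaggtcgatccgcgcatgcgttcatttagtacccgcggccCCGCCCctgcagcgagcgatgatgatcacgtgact
Bcl2l11: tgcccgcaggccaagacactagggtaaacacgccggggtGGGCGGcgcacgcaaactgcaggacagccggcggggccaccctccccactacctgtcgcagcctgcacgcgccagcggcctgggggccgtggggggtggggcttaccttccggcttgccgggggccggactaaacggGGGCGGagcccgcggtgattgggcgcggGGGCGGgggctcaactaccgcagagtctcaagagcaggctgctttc
The Bax window holds 2 GC boxes and 1 E-box (CACGTG) at 54.0% GC, and the Bcl2l11 window 3 GC boxes and 1 FOXO core (TAAACA or TGTTTA) at 72.0% GC. Searched on both strands, a GC box occurred in 32.7% of all 32851 RefSeq windows of this length, an E-box in 6.02%, a FOXO core in 12.0% and a TATA box (TATAAA or TTTATA) in 12.4%. Among 15 windows of 9 members, 10 windows of 7 members held a GC box, 2 an E-box, 2 a FOXO core and 0 a TATA box. No window of Pmaip1 was used, and 2 of the Bbc3 windows overlap each other. GC content of the member windows was 47.6% to 81.6%, beside a median of 52.4% over all windows. The shares of windows with a GC box were not matched for GC content. The motifs searched do not contain one another. A match shows letters in the reference only, and a window without one says nothing of the factor.

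Ratios of counts within a library do not depend on library scaling. Bcl2l11 to Bcl2l1, BIM over BCL-XL, was 0.373, 0.402, 0.308, 0.222 and 0.305 in young libraries, 0.399, 0.599, 0.833 and 0.617 in aged IgG2a libraries, and 0.392, 0.271, 0.257 and 0.513 in aged aPD1ab libraries. Aged IgG2a libraries 2 to 4 were above all others, and library 1 lay just under the highest young value. The mean was 0.322 ± 0.0698 (SD, n = 5) in young, 0.612 ± 0.177 (n = 4) in aged IgG2a and 0.359 ± 0.120 (n = 4) in aged aPD1ab mice, and 0.683 ± 0.130 (n = 3) in aged IgG2a mice without library 1. The Bax to Bcl2 ratio was ordered differently. It was 0.910, 1.02, 0.863, 0.700 and 1.24 in young, 1.17, 1.58, 1.08 and 0.882 in aged IgG2a, and 1.58, 2.66, 1.44 and 1.80 in aged aPD1ab libraries, so that aPD1ab values lay above every young value and overlapped with IgG2a through library 2 of the latter. Its means were 0.947 ± 0.201, 1.18 ± 0.292 and 1.87 ± 0.548. Bcl2l11 to Mcl1 overlapped in all groups, with means of 0.0680 ± 0.00535, 0.0829 ± 0.0202 and 0.0727 ± 0.0184, as did Bcl2l11 to Bcl2, at 1.00 ± 0.196, 1.39 ± 0.335 and 1.37 ± 0.445. Without library 1 the aged IgG2a means were 1.18 ± 0.357 for Bax to Bcl2, 0.0859 ± 0.0236 for Bcl2l11 to Mcl1 and 1.39 ± 0.410 for Bcl2l11 to Bcl2 (n = 3). These ratios are of counts not corrected for gene length and were not tested.

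**Figure D5:**
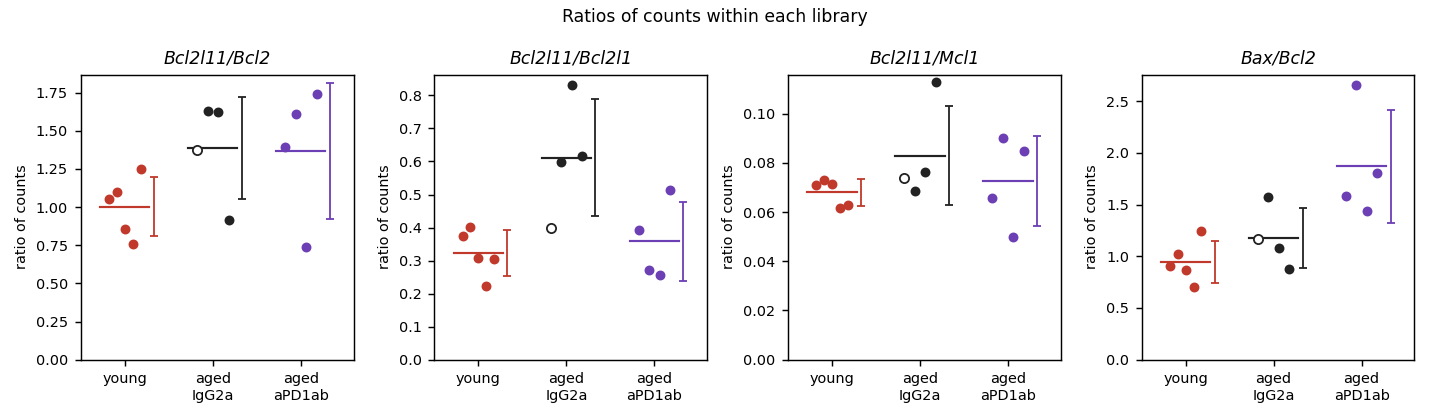
Ratio of counts within each library for Bcl2l11 over Bcl2, Bcl2l1 and Mcl1 and for Bax over Bcl2, with group mean (bar) and SD (error bar), n = 5 young, 4 aged IgG2a and 4 aged aPD1ab libraries, with aged IgG2a library 1 open. Bcl2l11 over Bcl2l1 is highest in the 3 filled aged IgG2a points, and Bax over Bcl2 is highest in aged aPD1ab mice.

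A fixed list of 61 other apoptosis genes in 8 groups places the members in their pathway, and 59 of them could be tested (Bcl2l10 and Hrk did not pass the filter on low counts). In aged IgG2a against young mice 4 were called higher and 1 lower, 8.47% of the list beside 17.4% of all genes, with a list median of 0.078. Those that rose were Bcl2a1b, a survival member of the BCL2 family, at 1.57 (SE 0.46, edgeR adjusted p = 0.0419), Htra2, a mitochondrial protease that antagonises inhibitors of apoptosis, at 0.67 (SE 0.18, edgeR adjusted p = 0.0324), and the TNF receptor gene Tnfrsf1a (log2 fold change 0.55) with its adaptor Tradd (0.52). Usp9x, a deubiquitinase that stabilises MCL1, fell by 0.48 on the log2 scale. Reads of Bcl2a1b are uncertain because Bcl2a1a, Bcl2a1b and Bcl2a1d are near-identical copies. Leaving out aged IgG2a library 2, library 3 or any 1 young library brought the list to 0 called genes. Without library 1 there were 13 higher and 10 lower, 39.0% of the list beside 45.6% of all genes. Among them Apaf1 (0.66), the scaffold of the apoptosome, and Birc5 (1.31), a mitotic inhibitor of apoptosis, were higher. Cycs (-0.93), cytochrome c, Aifm1 (-1.02), a flavoprotein of the mitochondrial intermembrane space, and Vdac1 (-0.81), an outer membrane channel, were lower.

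With aPD1ab against IgG2a, edgeR called 0 of the 59 genes over all aged libraries, and 0 of all 15530 genes tested. Of the 59, 12 had an unadjusted p under 0.05, beside 28% of all genes, and the list median was -0.054. Xiap, an inhibitor of initiator and executioner caspases, had a log2 fold change of -0.49 (SE 0.15, edgeR adjusted p = 0.110) and Apaf1 one of -0.89 (SE 0.30, edgeR adjusted p = 0.123). Other tests called more, in the list as over all genes. DESeq2 called 6 list genes, beside 1390 higher and 983 lower among 15530 genes. The joint edgeR fit called 9, beside 1861 and 1002 among 16330 genes, and voom 21, beside 3248 and 2929 among 15530. Without library 1, 11 were higher and 9 lower, 33.9% of the list beside 30.4% of all genes. Of the 7 genes of the mitochondrial pore and remodelling group 5 rose, with Vdac1 at 1.18 and Aifm1 at 1.10, and Cycs rose by 1.29 and Bik, a BH3-only gene, by 1.74. Apaf1 fell by 1.12 and Xiap by 0.59. Cycs, Aifm1 and Vdac1 encode mitochondrial proteins, and summed proximal tubule markers differed between the same libraries as given above. Their part was not tested.

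Against young mice, aged aPD1ab mice had 10 of the 59 genes higher and 6 lower, 27.1% of the list beside 22.4% of all genes, with a list median of 0.081. The count fell to 10 without young library 4, where 1336 of 15830 genes were called higher and 1082 lower, against 1984 and 1594 of 15986 before. In the joint fit it was also 10, beside 1491 and 1411 of 16330 genes. With any other library left out it was 11 to 18. The stress-response genes Atf4 (0.65, SE 0.12, edgeR adjusted p = 0.00718) and Ddit3 (0.59), which encodes CHOP, rose, as did Vdac2 (0.44), an outer membrane channel that binds BAK, Endog (1.24), a mitochondrial nuclease, Bik (0.87), Bag1 (0.57), a cochaperone that binds BCL2, and Tradd (0.53). Usp9x (-0.92, SE 0.18, edgeR adjusted p = 0.00726), Xiap (-0.55), Birc6 (-0.62), an inhibitor of apoptosis, and the caspase gene Casp2 (-0.65) fell. In aged IgG2a against young mice Ddit3 had a log2 fold change of 0.69 (SE 0.29, edgeR adjusted p = 0.119), no smaller than with aPD1ab. Endog stood at 0.48 there, Vdac2 at 0.14, Xiap at -0.022, Birc6 at -0.23 and Casp2 at 0.19, none of them called.

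The genes whose log2 CPM followed a member most closely over the 13 libraries were looked up for 1 member of each role, among 16330 genes. For Bcl2l11 they included Dvl2 (Pearson r = 0.954), Srsf2 (0.947), Ptpn1 (0.926) and Snx18 (0.916). Those nearest to Bcl2 were Klrb1-ps1 (0.943), Mtf2 (0.932), Ccdc28b (0.918), Klhl15 (0.913) and Mdm4 (0.911), and those nearest to Bax were Gm5963 (0.965), Rpl19 (0.963), Brk1 (0.961), Rpl36 (0.958) and Rpl29 (0.958). The points share libraries, scaling and the difference between groups, so these values describe likeness in this set of libraries only.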

How the data were processed

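Podocyte-fraction mRNA was sequenced by the authors (TruSeq RNA kit), and the deposited table holds the whole-number count of reads on each Ensembl gene for each library, without normalization. HISAT2, featureCounts and GRCm38 (mm10) are named in the submitters' processing notes, and versions and the strand setting are not given in the sources used here. Of 15 columns, 13 were tied to a group by the mouse numbers that the study prints beside its podocyte points in a principal component plot. The remaining 2 columns could not be assigned and were not used. Sample titles carry other numbers, so a column is known by group only, and libraries are numbered here in column order. Mice were individual animals per the labels, and no batch or pairing is given.

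Symbols and exon lengths came from GENCODE M21, which held 45143 of the 46078 genes. Members and lists were chosen with earlier results of these data known. Each pair of groups was fitted in edgeR 4.0.16 (R 4.3.3) with TMM scaling, filterByExpr and the robust quasi-likelihood test, and p was adjusted by Benjamini-Hochberg over all genes, with a call at an adjusted p under 0.05. CPM used TMM library sizes, and CPM per kb the length of merged exons. Overlap of groups was judged in TMM-scaled CPM unless another scale is named. Alternatives were RLE size factors, DESeq2 1.42.0, limma 3.58.1 (voom with sample quality weights), 1 fit of the 3 groups, no filter, a 2-fold minimum, TPM for levels, each library left out in turn and, added after seeing the data, library totals without TMM. The text names all 10 members, of each pathway group up to 2 genes with the smallest p in a comparison, and 5 nearest genes for Bcl2l11, Bcl2 and Bax. Some genes that this rule names are not reported here. Limits set by 3 counts cover counting error only. The cell type lists (podocyte, proximal tubule, macrophage, T cell, B and plasma cell, neutrophil, endothelial, mesangial and mural, and loop, distal and collecting duct) were used as counts and sums.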

Additional observations from a re-analysis of the deposited data

Results flagged for a closer look

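Mcl1 in aged aPD1ab library 2 stood at 290.5 CPM, apart from the other 3 aPD1ab libraries, of which the nearest was at 478.1 CPM. The gap was 0.916 of the range of the group, above the limit of Dixon's test for 4 samples. Of 30 groups tested, that is 10 members in 3 groups, this 1 passed the limit, and chance alone takes about 1 in 20 past it. The same library had the highest Bid of all 13 libraries, at 59.4 CPM, the highest summed proximal tubule markers, at 13200 CPM, and the lowest summed podocyte markers, at 336 CPM.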

How the results depend on the processing

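Counts of called genes moved with the test and with single libraries. In aged IgG2a against young mice 5 members and 5 pathway genes were called. A 2-fold minimum left 1 member and 1 pathway gene, and the count over all genes at that minimum was not computed. DESeq2 called 7 members and 13 pathway genes, beside 2289 genes higher and 2166 lower among 15953. Voom called 8 and 26, beside 3898 and 3549. The joint fit of the 3 groups called 3 and 3, beside 1039 and 1243 among 16330. No filter gave 4 and 2, beside 828 and 1065 among 26039. Library totals gave 1 and 11, beside 331 and 3380 among 15953. Leaving out 1 library at a time gave 0 to 8 members and 0 to 23 pathway genes. Over all genes it gave from 260 higher and 293 lower to 3584 and 3813. The cause of these moves was not tested, apart from the 2-fold minimum, which is stricter by construction. For aPD1ab against IgG2a, with 0 and 0 called, DESeq2 gave 2 members and 6 pathway genes, voom 6 and 21, the joint fit 2 and 9, and leaving out 1 library 0 to 4 and 0 to 20, the highest without IgG2a library 1. Calls over all genes in these settings are given below. For aPD1ab against young mice 2 members and 16 pathway genes were called, beside 1984 genes higher and 1594 lower. The 2-fold minimum left 0 and 1. The joint fit called 2 and 10, beside 1491 and 1411, and library totals 1 and 9, beside 856 and 1632. Leaving out 1 library gave 2 to 3 members and 10 to 18 pathway genes. Over all genes, calls were 1345 and 1024 without aPD1ab library 4, and 2122 and 1746 without aPD1ab library 1.

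Some directions turned. Bad in aged IgG2a against young mice (0.017) was -0.068 with voom, -0.045 in the joint fit, -0.020 with no filter, -0.39 with library totals, and -0.086 to 0.058 with 1 library left out (-0.0041 without young library 3). Library totals turned Bcl2 in that comparison to -0.076 and Bcl2l1 in aPD1ab against young mice to -0.031. Bcl2 in aPD1ab against young mice was -0.31 to 0.015 with 1 library left out, and TPM turned differences of mean log2 level. In aged IgG2a against young mice Bax went to -0.060, Bcl2 to -0.37, Mcl1 to -0.18 and Bak1 to -0.12. In aPD1ab against IgG2a, where the median gene moved by 0.45, Mcl1 went to 0.11 and Bak1 to 0.093. In aPD1ab against young mice, where it moved by -0.24, Bcl2l1 went to -0.13, Mcl1 to -0.064, Bak1 to -0.027 and Bcl2l11 to -0.0031. Of 440 member fold changes under alternatives other than TPM, 376 kept their direction and side of the threshold. In aged IgG2a against young mice 104 of 150 did, while 31 lost a call, 8 gained one and 7 changed direction. For aPD1ab, 126 of 140 did against IgG2a, where 0 members were called, and 146 of 150 against young mice. Of the calls in aged IgG2a mice, Bcl2l11 held in 12 of 15 alternatives, Bid in 11, Bax in 9, and Bbc3 and Pmaip1 in 6 each.

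Over all genes, IgG2a against young mice had 1443 higher and 1337 lower calls, 2289 and 2166 with DESeq2, 3898 and 3549 with voom, and from 260 and 293 to 3584 and 3813 with 1 library left out. For aPD1ab against young mice, 1984 and 1594 became 1345 and 1024 without aPD1ab library 4. Against IgG2a, aPD1ab had 0 calls with edgeR, 1390 higher and 983 lower with DESeq2, 3248 and 2929 with voom, and 1861 and 1002 in the joint fit. Without IgG2a library 1 it had 2702 and 2086. No paired analysis was possible because the columns carry no numbers that pair mice across groups. Members had at least 104 counts per library, and groups had 4 or 5 mice.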
